A study of Mus musculus with 2 samples.

Results

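Nonclassical monocytes were studied among single liver leukocytes of mice, and 793 of 7603 kept cell barcodes belonged to them. A barcode, which stands for 1 droplet, was kept with at least 200 detected genes and at most 10% mitochondrial UMIs (unique molecular identifiers, each counting 1 captured transcript). A kept barcode was a member with at least 3 UMIs of Lyz2, a lysozyme gene of myeloid cells, and a sum of at least 3 UMIs over Ace, Treml4, Cd300e and Ear2. It could hold at most 1 UMI of Ly6c2, Chil3, F13a1 and Vcan together, at most 2 of C1qa, C1qb and C1qc, at most 2 of Arg1 and Spp1, and none of Ncr1, Klrb1c or Cd79a. These limits keep out classical monocytes, complement-rich macrophages, scar-associated macrophages, natural killer (NK) cells and B cells. The rule was set on measured counts, so the levels of its 17 genes are a description.

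Nonclassical monocytes are the long-lived monocytes of the blood. They arise from classical Ly6C-high monocytes through the nuclear receptor Nr4a1 and the factor Cebpb, crawl along the vessel wall with the help of the integrin LFA-1 and the receptor Cx3cr1, and sense and clear damaged endothelium and particles. In the liver they are found in the sinusoids, and in injured livers monocyte-derived macrophages low in Ly6C have been tied to the clearing of scar tissue.

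The RES library came from C57BL/6 mice in which liver fibrosis had resolved, and the Ctrl library from C57BL/6 mice without injury. The injuring agent, the time since injury, and the age and sex of the mice are not given in the sources used here. Each library is a pool of 5 mice, sorted for CD45 and the integrin CD11b and counted by droplet sequencing of transcript 3′ ends. With 1 library per group there was no replicate check, no test and no p-value, a difference between the mice and one between the preparations cannot be told apart, and each interval below is a 95% interval that covers counting error alone.

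The RES library held 34119806 UMIs in 4278 barcodes and the Ctrl library 20379164 UMIs in 3691 barcodes. The nonclassical monocytes did not share this gap in depth: their median was 5062 UMIs and 2057 genes in RES and 5000 UMIs and 1942.5 genes in Ctrl. Classical monocytes, chosen by the mirrored limits (a sum of at least 3 over Ly6c2, Chil3, F13a1 and Vcan and at most 1 over Ace, Treml4, Cd300e and Ear2), had a median of 10632 UMIs in RES and 7839 in Ctrl. Of the barcode sequences, 56 occurred in both libraries, and none of them was a nonclassical monocyte.

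Nonclassical monocytes made up a larger share of the RES library than of the Ctrl library. The share was 12% of kept barcodes in RES (499 of 4157, exact Clopper-Pearson interval 11.03 to 13.03) and 8.53% in Ctrl (294 of 3446, interval 7.62 to 9.51), a difference of 3.47 percentage points (Newcombe interval 2.11 to 4.83). Among barcodes with at least 3 UMIs of Lyz2 the shares were close, at 21.7% in RES and 20.8% in Ctrl, and the interval of their difference ran from -1.83 to 3.58 points. Set against classical monocytes, there were 1.13 nonclassical monocytes per classical one in RES and 0.930 in Ctrl. Monocytes that carried both marker sets numbered 152 in each library. When the rule was applied to counts thinned to 3000 UMIs per barcode, which evens the depth, the difference was 2.11 points (interval 0.528 to 3.67). Thinning drops barcodes under 3000 UMIs, which left 3727 of 4157 in RES and 2630 of 3446 in Ctrl. The shares of these were 12.3% in RES and 10.2% in Ctrl, so the unequal loss also enters the difference.

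The members carried the program of nonclassical monocytes beyond the genes that chose them. Levels are UMI sums over the members of a library, per 1e+06 UMIs of those members (CPM). Adgre4, an adhesion receptor, had 714 CPM in RES members and 469 CPM in Ctrl members, against 45.6 CPM and 74.0 CPM in the classical monocytes of RES and Ctrl. Pou2f2, a transcription factor of these cells, had 1484 CPM in RES and 1534 CPM in Ctrl members, against 257 and 337 CPM in classical monocytes. Spn, the sialomucin CD43 by which nonclassical monocytes are often sorted, had 732 CPM in RES and 589 CPM in Ctrl members, against 30.6 and 59.5 CPM in classical monocytes. All these markers were thus higher in the members than in classical monocytes of either library, as a description, because the same cells were split by the rule.

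**Figure D1:**
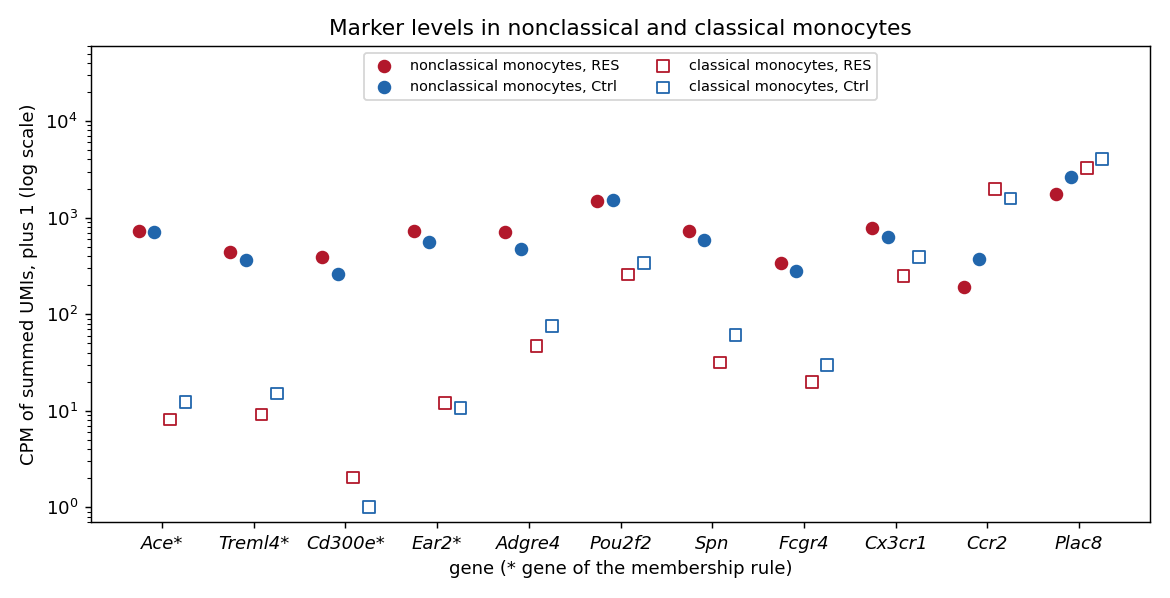
Levels of 11 genes in nonclassical monocytes (filled circles) and classical monocytes (open squares) of RES (red) and Ctrl (blue), as CPM of summed UMIs plus 1 on a log axis, with 1 library per group and so no error bars. Adgre4, Pou2f2 and Spn, which the rule did not use, lie above the classical monocytes in both libraries, and Ccr2 lies below them.

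Of the genes that the rule did use, Ace, the angiotensin-converting enzyme, had 723 CPM in RES members and 705 CPM in Ctrl members. Ear2, a ribonuclease, had 730 CPM in RES and 555 CPM in Ctrl, and Treml4, a receptor that binds dead cells, had 436 CPM in RES and 364 CPM in Ctrl. Cd300e, an activating receptor, had 388 CPM in RES and 259 CPM in Ctrl. The summed UMIs of these 4 genes had a median of 12 per member in RES and 9 in Ctrl. Just inside the limit, at a sum of 3, lay 20 RES and 26 Ctrl barcodes, with Adgre4 at 263 CPM in RES and 198 CPM in Ctrl. Just outside it, at a sum of 2, lay 22 RES and 37 Ctrl barcodes, with Adgre4 at 199 CPM in RES and 133 CPM in Ctrl.

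The genes that set nonclassical furthest apart from classical monocytes covered fatty acid binding, ion transport, sphingosine sensing and phosphatases. Fabp4, a fatty acid binding protein, had 495 CPM in RES members and 398 CPM in Ctrl members, and 1.46 and 2.01 CPM in classical monocytes. Slc12a2, a sodium, potassium and chloride cotransporter, had 301 CPM in RES and 338 CPM in Ctrl members, and 2.08 and 2.41 CPM in classical monocytes. The muscle enolase gene Eno3, the scavenger receptor gene Cd36, the sphingosine phosphate receptor gene S1pr5, the Notch target Hes1, the phosphatase genes Dusp5 and Dusp16, the receptor gene Cd300ld, and Pglyrp1 and Ltb belonged to the same group of 12, with Spn.

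The classical monocyte markers outside the rule summed to 2050 CPM in RES members and 3105 CPM in Ctrl members, most of it Plac8 (1749 and 2625 CPM), which both monocyte classes express. Markers of Kupffer cells, the resident macrophages of the liver, were at or near 0. In each library, 4 of 5 Kupffer cell markers had no UMI in the members, and the sum of all 5 was 1.35 CPM in RES and 0.56 CPM in Ctrl. Clec4f and Timd4, which define Kupffer cells, had 0 UMIs each in RES members, and 0 and 1 UMI in Ctrl members. The type 2 dendritic cell list (Cd209a, Clec10a, Flt3, Mgl2 and H2-DMb2) summed to 75.9 CPM in RES members and 97.7 CPM in Ctrl members, in 35 RES and 29 Ctrl cells. The B cell list summed to 125 CPM in RES and 194 CPM in Ctrl members, the complement macrophage list to 160 and 258 CPM and the scar-associated macrophage list to 136 and 68.5 CPM. The 5 NK cell markers outside the rule summed to 98.2 CPM in RES and 385 CPM in Ctrl members, most of it Ccl5.

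A few genes of other cells differed between the libraries in NK cells, which limits what can be read from them in the members. Fn1, the fibronectin gene, had 72.9 CPM in RES members and 46.6 CPM in Ctrl members, while NK cells, which should lack it, had 57.1 CPM in RES and 4.37 CPM in Ctrl. Arg1, a rule gene, had 23.6 CPM in RES and 1.12 CPM in Ctrl members, close to the 22.1 and 2.27 CPM of NK cells. The RES levels of both genes in the members were thus of the size of those in NK cells. Whether free RNA in the droplets or doublets gave these levels was not tested.

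Between the libraries, 105 of 3193 counted genes (3.29%) were at least 1.5-fold higher in RES members and 61 (1.91%) at least 1.5-fold lower. A gene was counted with at least 50 CPM in either library, rule genes aside, and was called on its log2 ratio of RES over Ctrl with 10 CPM added to each level. The median ratio over all counted genes was 0.06 on that scale. All called genes had an interval of the ratio that excluded no difference in counts. This follows from the limits of 50 CPM and 1.5-fold at this depth, so it adds no support to the calls. When the median ratio was set to 0, the split was 77 higher and 73 lower.

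Of the genes that reached 100 CPM in RES or Ctrl members and lie outside the membership rule and the marker lists, those with the highest ratios (10 CPM added) were, in order, Fpr2, Hp, Pecam1, Txn1, Serpinb6a and Pla2g7. Fpr2, a formyl peptide receptor (chromosome 17, 17887824 to 17893952 on GRCm38, plus strand), had 139 CPM in RES members and 33.7 CPM in Ctrl members. Its log2 ratio was 2.04 (1.65 to 2.46), and classical monocytes showed no such gap, at 35.2 CPM in RES and 36.2 CPM in Ctrl. Its relative Fpr1 had 191 UMIs in RES members (64.4 CPM) and 9 UMIs in Ctrl members (5.05 CPM), a log2 ratio of 3.67 (2.72 to 4.82). After thinning to 3000 UMIs, Fpr2 was seen in 29.3% of RES members and 6.82% of Ctrl members, and in 0.247% of RES NK cells. It had a UMI in 0 of 988 Ctrl NK cells, where a limit of 3 counts allows a share of cells with a UMI of up to 0.304%.

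Pecam1, the adhesion molecule CD31 of endothelium, platelets and leukocytes, had 131 CPM in RES members and 32.6 CPM in Ctrl members, a log2 ratio of 2.01 (1.61 to 2.43). Classical monocytes held 5.83 CPM in RES and 9.25 CPM in Ctrl. The endothelial marker list summed to 2.70 CPM in RES members and 1.12 CPM in Ctrl members, and the platelet list to 3.04 and 2.81 CPM. Those lists were near 0 in both libraries.

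Hp, haptoglobin, which binds free haemoglobin, had 526 CPM in RES members and 150 CPM in Ctrl members, a log2 ratio of 1.81 (1.62 to 1.998). It was also higher in the classical monocytes of RES, with 957 CPM against 458 CPM in Ctrl, and NK cells held 7.03 and 1.40 CPM. Txn1, the thioredoxin that reduces oxidised proteins, had 810 CPM in RES members and 276 CPM in Ctrl members (log2 ratio 1.56, 1.41 to 1.70). Gstm1, a glutathione transferase, had 113 CPM in RES and 44.9 CPM in Ctrl members. Hmox1, haem oxygenase, which was chosen after its values were seen, had 193 CPM in RES and 111 CPM in Ctrl members.

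Pla2g7, a phospholipase that breaks down platelet-activating factor, had 549 CPM in RES members and 210 CPM in Ctrl members, a log2 ratio of 1.38 (1.22 to 1.55). Clec4e, the lectin Mincle, had 174 CPM in RES and 67.4 CPM in Ctrl members, and Serpinb6a, a protease inhibitor, had 159 CPM in RES and 49.4 CPM in Ctrl members. The lectin gene Cd302, the amino acid transporter gene Slc16a10 and Gm36161 completed the 12 highest, with AC160336.1. AC160336.1 was higher in RES in every class looked at, with 299 and 126 CPM in RES and Ctrl members, 199 and 90.9 CPM in classical monocytes and 185 and 88.1 CPM in NK cells.

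**Figure D2:**
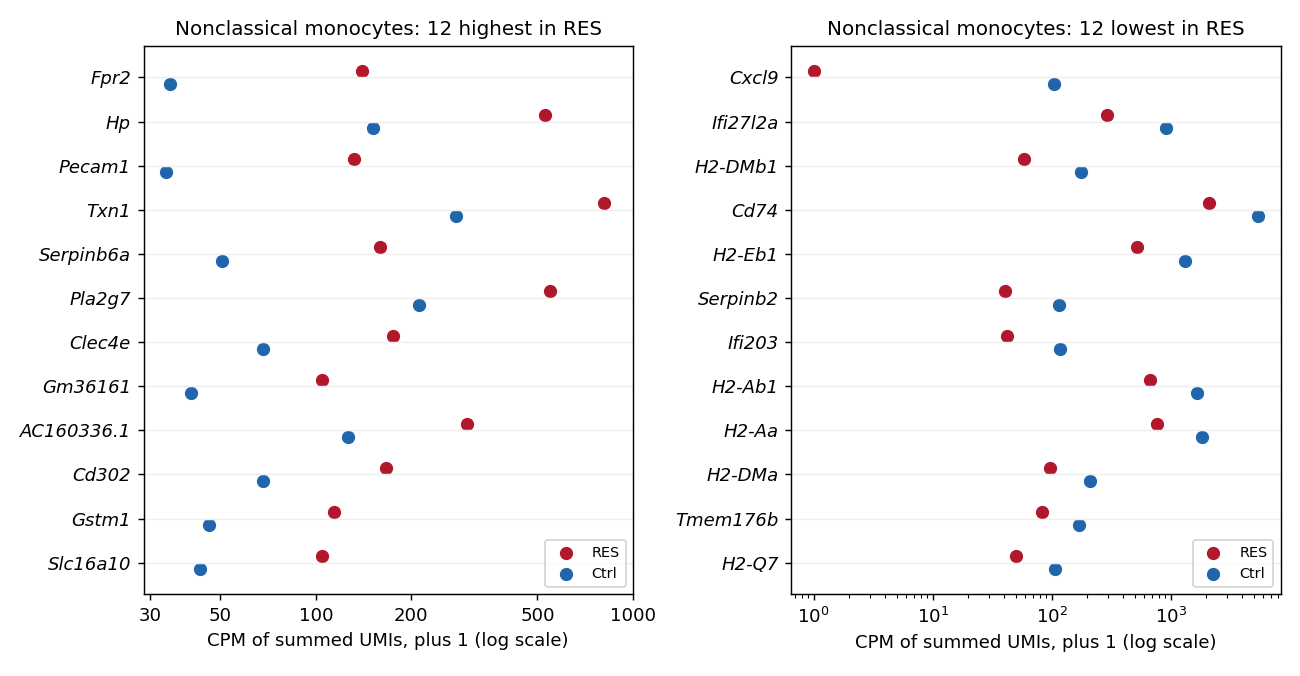
The 12 genes highest (left) and the 12 lowest (right) in RES over Ctrl nonclassical monocytes, as CPM of summed UMIs plus 1 on a log axis, with RES in red above Ctrl in blue and no error bars, since each group is 1 library. Fpr2 stands at 139 CPM in RES and 33.7 CPM in Ctrl, and Cxcl9 has no UMI in RES.

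Of the list of nonclassical identity genes outside the rule, 5 of 32 counted genes were higher in RES and none lower, with a median log2 ratio of 0.28, where 3.29% of all counted genes were higher and 1.91% lower. Besides Pecam1 these were Cebpb, Cd300ld, Adgre4 and Cd274. Cebpb, a factor that nonclassical monocytes need to survive, had 2893 CPM in RES members and 1659 CPM in Ctrl members (log2 ratio 0.80, 0.74 to 0.86), and classical monocytes had 1455 and 892 CPM. Nr4a1, the factor that makes these cells, had 629 CPM in RES and 446 CPM in Ctrl members and was not called. With the median of all genes set to 0, 3 of the 32 were higher, and Adgre4 and Cd274 were not called. Without the members rich in class II transcripts, described below, the ratios of Cebpb and Adgre4 were 0.56 and 0.42 (10 CPM added). Both were too low for a call, while that of Pecam1 was 1.76. The higher levels of Cebpb and Adgre4 in RES thus depended in part on which members were included.

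Of 19 counted transcription factors of monocyte fate, Cebpb was higher and 3 were lower in RES, Runx3 and Irf8 among them, against 3.29% higher and 1.91% lower of all counted genes. Irf8, a factor of monocyte and dendritic cell development that was chosen after its values were seen, had 165 CPM in RES members and 253 CPM in Ctrl members. Runx3, a factor that shapes lymphocytes and some myeloid cells, had 28.0 CPM in RES and 67.9 CPM in Ctrl members (log2 ratio -1.28, -1.70 to -0.86). Klf4, Klf2, Zeb2, Spi1 and Pou2f2 were within 1.5-fold.

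Several genes of inflammation and of the NF-κB pathway are given next. They were picked after their values were seen because they were higher in RES members, so their common direction is no evidence about the pathway. Icam1, a target of the same pathway, had 52.6 CPM in RES members and 62.3 CPM in Ctrl members, a gap within 1.5-fold. Cd83, another such target, was lower, at 29.3 CPM in RES members and 74.1 CPM in Ctrl members. Cxcl2, a chemokine that draws neutrophils, had 264 UMIs in RES members (89.0 CPM) and 20 UMIs in Ctrl members (11.2 CPM), a log2 ratio of 2.99 (2.33 to 3.72). Its 5 richest cells held 25.8% of its UMIs in RES and 65.0% in Ctrl. Il1b, which encodes the cytokine interleukin-1 beta, had 230 CPM in RES and 123 CPM in Ctrl members (0.90, 0.67 to 1.12). Both genes were higher in RES members.

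Nfkbia, the inhibitor that holds NF-κB in the cytosol, had 592 CPM in RES members and 369 CPM in Ctrl members (0.68, 0.55 to 0.81). Tnfaip3, the ubiquitin-editing enzyme A20, had 77.6 CPM in RES and 28.6 CPM in Ctrl members (1.44, 0.995 to 1.91). Tnip1 and Tnip3, which bind A20, had 134 and 90.4 CPM in RES members and 67.4 and 30.9 CPM in Ctrl members. Irak3, an inhibitor of Toll-like receptor signals, had 96.1 CPM in RES and 47.2 CPM in Ctrl members, and the kinase gene Ikbke had 59.7 and 11.2 CPM. Siglece, an inhibitory sialic acid receptor, had 89.0 CPM in RES and 12.3 CPM in Ctrl members (2.85, 2.22 to 3.55). It was also higher in the classical monocytes of RES, with 33.8 CPM against 17.3 CPM in Ctrl. Tnfaip3 and Tnip3 were lower in RES classical monocytes, and Nfkbia, Tnip1, Irak3 and Ikbke were within 1.5-fold there. Il10, which encodes an anti-inflammatory cytokine, had 51 UMIs in 32 RES members and none in 294 Ctrl members, at least 10.2-fold higher against a floor of 3 UMIs in the Ctrl sum, and no UMI in classical monocytes. Its level in RES members was 17.2 CPM, under the 50 CPM set for counted genes, and its 5 richest cells held 33.3% of its UMIs.

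Of the innate sensing list, 3 of 9 counted genes were higher in RES and none lower, namely Fpr1, Fpr2 and Cd14, where 3.29% of all counted genes were higher and 1.91% lower. Cd14 was also higher in the classical monocytes of RES, with 164 CPM against 55.5 CPM in Ctrl, while Fpr1 and Fpr2 were within 1.5-fold there (10 CPM added). In the members the Toll-like receptor genes Tlr2, Tlr7 and Tlr13 were within 1.5-fold. Of 7 counted cytokine and chemokine genes, Cxcl2, Il1b and Ccl3 were higher and Ccl5 was lower, against the same shares of all counted genes. In Ctrl members the 5 richest cells of each gene held 65.0% of the Cxcl2 UMIs and 61.6% of the Ccl5 UMIs. Of 4 counted coagulation genes, F10 and Thbd were higher and Serpinb2 was lower, against the same shares of all counted genes, with Thbd, the thrombomodulin gene, at 84.7 CPM in RES members and 47.7 CPM in Ctrl members.

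Genes that tissue handling can induce also differed. Of 12 counted immediate-early genes 3 were higher in RES members, namely Dusp1, Fosb and Zfp36, against 3.29% of all counted genes, and Fos, Jun, Junb, Ier2 and Nr4a1 were not called. With the median of all genes set to 0, 2 were higher and 1 was lower. Dusp1, a phosphatase that stress and glucocorticoids induce, had 637 CPM in RES and 303 CPM in Ctrl members. Hspa1b, a heat-shock gene, had 55.0 CPM in RES and 19.6 CPM in Ctrl members, and the other 4 counted heat-shock genes were within 1.5-fold. The part of handling in the inflammatory genes was not tested. Tsc22d3, a glucocorticoid target, had 317 CPM in RES and 167 CPM in Ctrl members, and NK cells had 224 and 119 CPM.

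The promoters of Cxcl2 and Nfkbia are shown because both held a motif of NF-κB. Capitals mark GGGA, any base, TT, any base and CC, in this order, or the reverse complement, in RefSeq windows of 250 bases before to 50 bases after the start, on GRCm38.p6 and in the sense of the gene. The motif, chosen after the values were seen, was in the windows of 5 of 87 matched genes that were higher (5.75%), 2 of 48 that were lower (4.17%), 1.52% of 2567 matched counted genes and 1.38% of all genes in the table.
Cxcl2, chr5:90903649-90903948, plus strand: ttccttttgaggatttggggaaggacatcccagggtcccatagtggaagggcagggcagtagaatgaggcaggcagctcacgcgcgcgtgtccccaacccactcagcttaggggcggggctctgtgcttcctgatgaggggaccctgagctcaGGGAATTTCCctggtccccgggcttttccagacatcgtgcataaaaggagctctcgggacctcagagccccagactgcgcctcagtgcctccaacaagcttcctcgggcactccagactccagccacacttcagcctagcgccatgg
Nfkbia, chr12:55492598-55492897, minus strand: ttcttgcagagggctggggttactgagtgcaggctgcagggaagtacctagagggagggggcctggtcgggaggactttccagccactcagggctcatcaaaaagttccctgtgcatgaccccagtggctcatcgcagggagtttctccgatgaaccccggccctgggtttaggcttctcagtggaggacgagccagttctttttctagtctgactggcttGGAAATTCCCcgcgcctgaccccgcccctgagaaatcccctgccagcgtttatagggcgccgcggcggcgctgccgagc

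The genes lower in RES members included those of class II antigen presentation and interferon responses. Of 9 counted class II presentation genes 7 were lower in RES, against 1.91% of all counted genes, with a median log2 ratio of -1.29. Cd74, the invariant chain that guides class II molecules, had 2114 CPM in RES members and 5448 CPM in Ctrl members (-1.37, -1.41 to -1.32). The chain genes H2-Aa, H2-Ab1 and H2-Eb1 had 762, 668 and 517 CPM in RES members and 1820, 1650 and 1325 CPM in Ctrl members. Ciita, the master activator of class II genes, had 26.3 CPM in RES and 99.3 CPM in Ctrl members (-1.92, -2.32 to -1.52). H2-DMa and H2-DMb1, which load peptides, were also lower, while the protease gene Ctss and the costimulator gene Cd86 were within 1.5-fold. NK cells held Cd74 at 278 CPM in RES and 303 CPM in Ctrl.

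Fewer RES than Ctrl members were rich in class II transcripts. In the other members Cd74 was lower in RES, while H2-Aa, H2-Ab1 and H2-Eb1 differed little. In members thinned to 3000 UMIs, the UMIs of H2-Aa, H2-Ab1, H2-Eb1 and Cd74 together had a median of 1 per cell in RES and 3 in Ctrl, and a 90th percentile of 7 in RES and 99 in Ctrl. At least 10 such UMIs were seen in 40 of 457 RES members (8.75%, 6.33 to 11.7) and in 88 of 264 Ctrl members (33.3%, 27.7 to 39.4). NK cells reached that count in 0.577% of RES and 1.62% of Ctrl cells, and classical monocytes in 15.8% and 33.4%. The members under 10 had a mean of 0.959 class II UMIs in RES and 1.84 in Ctrl, a sum that pools Cd74 with the chain genes. The class II-rich cells held 87.7% of the members' class II UMIs in RES and 95.2% in Ctrl. The limit of 10 was set after the values were seen, and 5 RES and 11 Ctrl members lay between 8 and 12.

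**Figure D3:**
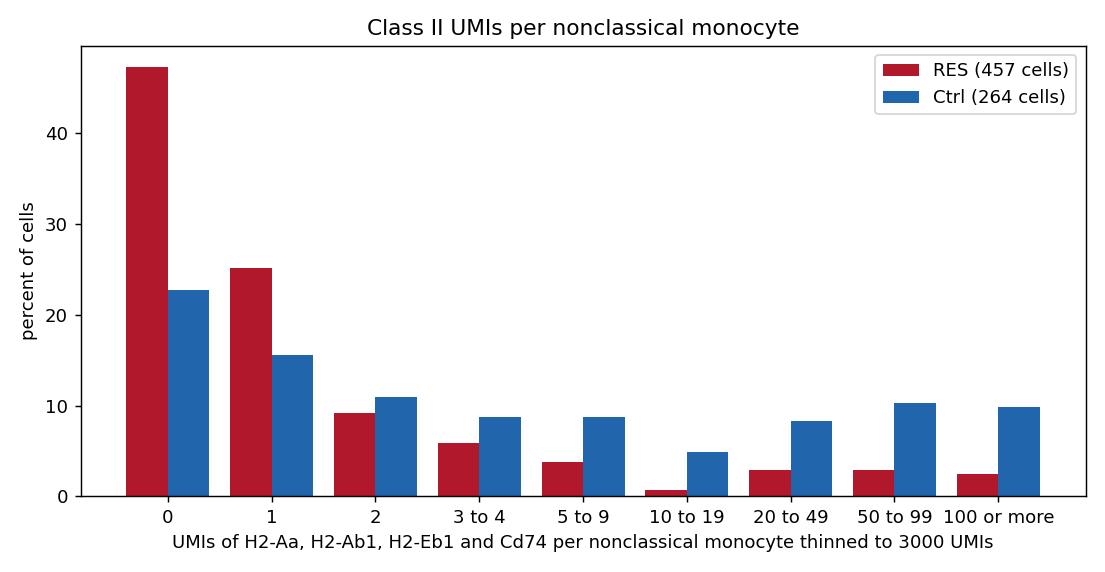
Share of nonclassical monocytes (percent of cells, vertical axis from 0) by the number of H2-Aa, H2-Ab1, H2-Eb1 and Cd74 UMIs per cell after thinning to 3000 UMIs, for 457 RES cells (red) and 264 Ctrl cells (blue). Cells with 10 or more are 8.75% of RES and 33.3% of Ctrl members, and the bars at 0 hold 47.3% of RES and 22.7% of Ctrl members.

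The class II-rich members differed in other genes in both libraries. Adgre4 had 377 CPM in the rich and 766 CPM in the other RES members, and 305 CPM in the rich and 584 CPM in the other Ctrl members. Ccr2, the receptor by which classical monocytes leave the marrow, had 625 CPM in the rich and 120 CPM in the other RES members, and 733 and 132 CPM in Ctrl. Cd209a, a lectin of monocyte-derived and type 2 dendritic cells, had 122 CPM in the rich and 0.82 CPM in the other RES members, and 94.8 and 0 CPM in Ctrl. Flt3, a receptor of dendritic cells, had 57.2 CPM in the rich and 1.22 CPM in the other RES members, and 23.3 and 0 CPM in Ctrl.

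Across members, Spearman's rho between class II UMIs and the summed identity genes was -0.22 in 457 RES cells and -0.54 in 264 Ctrl cells, which share a library within each group and are a description. The class II-rich cells were also deeper, with a median of 9152.5 UMIs in RES and 7236 in Ctrl, against 5074 and 4587 for the others. When members with a UMI of any of 8 dendritic cell markers were left out, the median ratio of the class II list was -1.60. When the class II-rich members were left out, it was -0.15, and that of the identity list was 0.11. In that setting the ratio of Cd74 was still -1.25 and that of Ciita -0.88 (10 CPM added), while H2-Aa, H2-Ab1 and H2-Eb1 were between -0.15 and 0.14.

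The promoters of H2-Aa and H2-Eb1 are shown because they carry the Y box, the part of class II promoters that NF-Y binds. Capitals mark the motif CTGATTGG, searched with its reverse complement CCAATCAG and chosen after the values were seen, in windows as above. It began 51 bases before the start in H2-Aa and 62 in H2-Eb1. It was in the windows of 8 of 48 matched genes that were lower (16.7%), 3 of 87 that were higher (3.45%), 6.43% of counted genes and 4.70% of all genes in the table. Of the lower genes on the class II list, 2 of 4 matched genes held it, and these are the 2 shown.
H2-Aa, chr17:34287774-34288073, minus strand: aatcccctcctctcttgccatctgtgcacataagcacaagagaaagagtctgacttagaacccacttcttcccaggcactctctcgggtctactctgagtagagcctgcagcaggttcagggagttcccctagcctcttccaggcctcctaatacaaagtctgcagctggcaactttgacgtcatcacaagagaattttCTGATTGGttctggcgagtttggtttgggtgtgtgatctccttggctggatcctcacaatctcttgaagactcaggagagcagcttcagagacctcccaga
H2-Eb1, chr17:34305617-34305916, plus strand: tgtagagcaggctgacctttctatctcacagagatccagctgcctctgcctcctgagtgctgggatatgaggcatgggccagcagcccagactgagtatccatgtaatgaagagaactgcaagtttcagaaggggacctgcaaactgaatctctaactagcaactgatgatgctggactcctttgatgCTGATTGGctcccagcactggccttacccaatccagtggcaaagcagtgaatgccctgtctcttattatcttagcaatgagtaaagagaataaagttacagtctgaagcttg

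Interferon response genes were lower in RES members, and the medians of their lists were negative in classical monocytes as well. Of 8 counted genes of the type I interferon list 6 were lower and none higher (median log2 ratio -0.80), against 1.91% lower of all counted genes, and the other 18 of the 26 lay under 50 CPM in both libraries. Ifi27l2a, an interferon-induced mitochondrial protein, had 290 CPM in RES members and 913 CPM in Ctrl members (-1.66, -1.78 to -1.54). It was seen in 32.2% of thinned RES members and 65.2% of thinned Ctrl members. Isg15, a ubiquitin-like protein that interferon induces, had 33 UMIs in RES members (11.1 CPM) and 98 UMIs in Ctrl members (55.0 CPM), a log2 ratio of -2.30 (-2.92 to -1.72). Its 5 richest cells held 42.4% of its UMIs in RES and 56.1% in Ctrl. Slfn5, Bst2, Zbp1 and Irf7 were lower as well, and Ifitm3 and Ifi204 were within 1.5-fold. In classical monocytes the same 8 genes had a median log2 ratio of -0.60 (10 CPM added).

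Of 6 counted genes of the interferon gamma list 5 were lower in RES and 1 higher, against 1.91% and 3.29% of all counted genes, with a median log2 ratio of -0.98, which stays the same with Cxcl9 at its bound. In classical monocytes the same 6 genes had a median log2 ratio of -1.84 (10 CPM added). Gbp2, a guanylate binding protein, had 19.2 CPM in RES members and 91.5 CPM in Ctrl members (-2.25, -2.71 to -1.81). Classical monocytes had Gbp2 at 35.4 CPM in RES and 277 CPM in Ctrl. Irf1, an interferon-induced transcription factor, had 78.6 CPM in RES and 135 CPM in Ctrl members, and Fam26f was lower too. Cd274, the checkpoint ligand PD-L1, was the gene that was higher, with 126 CPM in RES and 79.7 CPM in Ctrl members, and with the median of all genes set to 0 it was not called. None of the 6 counted interferon receptor and kinase genes was called, with Ifngr1 at 863 CPM in RES and 892 CPM in Ctrl members.

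Cxcl9, a chemokine that interferon gamma induces and that draws T cells (chromosome 5, 92321347 to 92328079 on GRCm38, minus strand), had no UMI in the 499 RES members and 185 UMIs in Ctrl members (104 CPM). Against a floor of 3 UMIs in the RES sum it was at least 103-fold lower in RES, and a limit of 3 counts over 499 cells allows a share of cells with a UMI of up to 0.601%, which does not limit the share of cells that express it. In Ctrl it came from 16 members, 1 of them with 62 UMIs, and the 5 richest held 81.1%. The level was 248 CPM in class II-rich and 14.6 CPM in the other Ctrl members, and without the rich members of both libraries the ratio was -1.24 in place of -3.51 (10 CPM added). Classical monocytes had Cxcl9 at 44.0 CPM in RES and 722 CPM in Ctrl, and NK cells at 0.45 and 8.74 CPM.

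Of 12 counted genes of class I presentation 4 were lower in RES and none higher, against 1.91% lower of all counted genes. They were H2-Q7, the transporter gene Tap1 and the immunoproteasome genes Psmb9 and Psmb10, with Tap1 at 55.7 CPM in RES members and 113 CPM in Ctrl members. H2-D1, which encodes a main class I chain, had 2169 CPM in RES and 2173 CPM in Ctrl members, and B2m had 3413 and 2717 CPM. With the median of all genes set to 0, 5 of the 12 were lower.

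**Figure D4:**
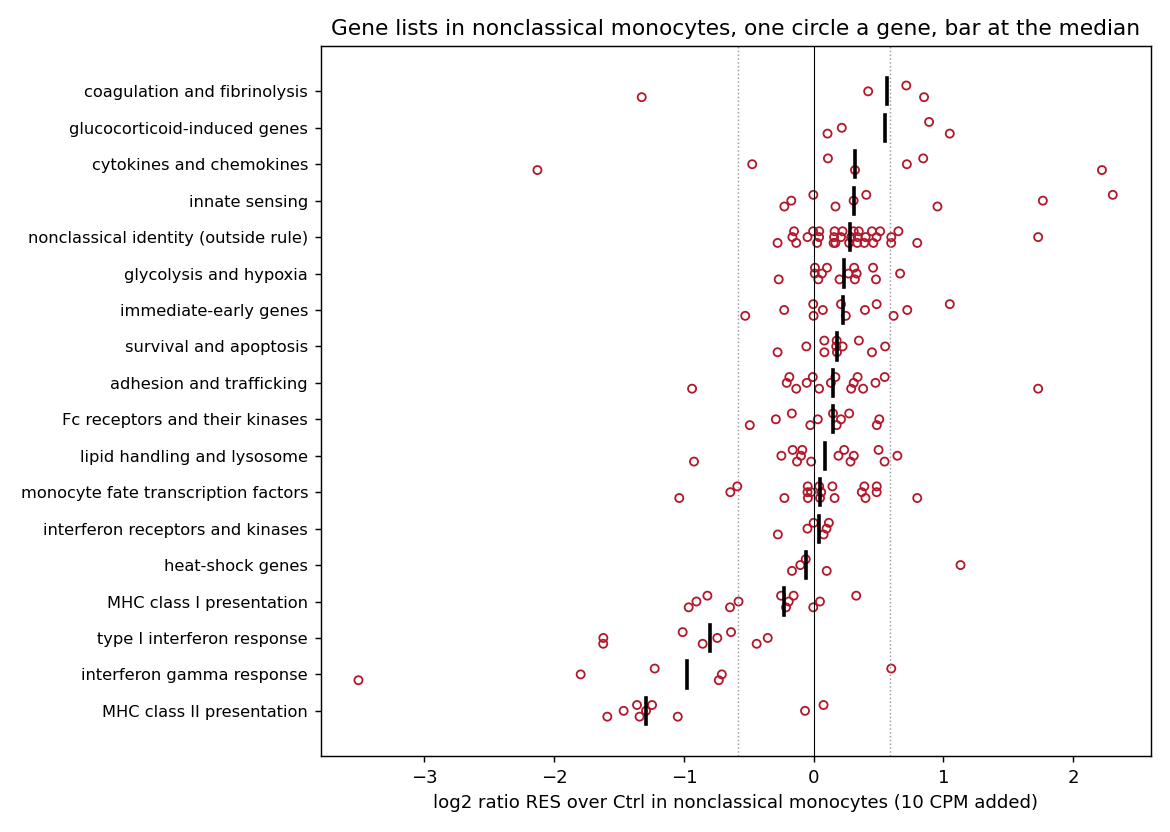
Log2 ratios of RES over Ctrl (10 CPM added) in nonclassical monocytes for the counted genes of 18 lists with at least 4 of them, 1 circle per gene, with the median as a black bar and dotted lines at 1.5-fold. The class II and interferon lists lie lowest, with medians of -1.29, -0.98 and -0.80, and the identity list has a median of 0.28.

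The promoters of Isg15 and Gbp2 are shown for the core of the interferon-stimulated response element, TTTC, 2 bases of any kind and TTTC, or its reverse complement, in capitals. Isg15 held 3 overlapping matches and Gbp2 1 match, which began 59 bases before its start. This core was in the windows of 9 of 48 matched genes that were lower (18.8%), 5 of 87 that were higher (5.75%), 4.75% of counted genes and 3.99% of all genes in the table. Of the lower genes on the interferon lists, 4 of 7 matched genes held it. The gamma-activated site TTCNNNGAA was about as frequent among lower (16.7%) and higher genes (16.1%), with 8.10% of counted genes.
Isg15, chr4:156200769-156201068, minus strand: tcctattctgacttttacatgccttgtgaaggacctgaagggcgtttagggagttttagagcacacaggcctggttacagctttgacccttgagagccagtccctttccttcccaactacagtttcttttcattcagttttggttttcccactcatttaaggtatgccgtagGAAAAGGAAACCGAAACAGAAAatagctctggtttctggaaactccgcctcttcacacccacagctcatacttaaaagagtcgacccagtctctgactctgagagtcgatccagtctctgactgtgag
Gbp2, chr3:142620413-142620712, plus strand: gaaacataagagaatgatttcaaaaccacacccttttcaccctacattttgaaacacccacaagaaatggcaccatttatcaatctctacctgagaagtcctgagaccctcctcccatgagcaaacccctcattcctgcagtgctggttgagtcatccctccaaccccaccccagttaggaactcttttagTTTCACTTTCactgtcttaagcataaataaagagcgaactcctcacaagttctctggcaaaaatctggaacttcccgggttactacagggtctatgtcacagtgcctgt

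Genes of classical monocytes and of other cells were among the lower ones as well. Ccr2 had 190 CPM in RES members and 372 CPM in Ctrl members (-0.97, -1.14 to -0.81), and without the class II-rich members its ratio was -0.23 with 10 CPM added. Ccl5, a chemokine that NK cells make at 16062 CPM in RES and 16227 CPM in Ctrl, had 61.0 CPM in RES members and 301 CPM in Ctrl members, where 1 cell held 197 of the 536 UMIs. Serpinb2, an inhibitor of plasminogen activators, had 39.5 CPM in RES and 114 CPM in Ctrl members, and Tmem176b, an ion channel of antigen-presenting cells, had 81.3 and 169 CPM. Without the class II-rich members the ratio of Tmem176b was -0.06 with 10 CPM added, and that of Tmem176a was -0.26. Ifi203, a gene of the interferon-induced DNA sensor family, had 41.2 CPM in RES and 117 CPM in Ctrl members.

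Several lists held few called genes, where 3.29% of all counted genes were higher and 1.91% lower. In lists of 2 to 16 counted genes such counts say little about a list. Of 14 counted glycolysis and hypoxia genes only Aldoa was called, with 367 CPM in RES members and 227 CPM in Ctrl members. None of 11 counted Fc receptor and kinase genes and none of 11 counted survival genes was called, with the growth factor receptor gene Csf1r at 1113 CPM in RES and 812 CPM in Ctrl members. Of 16 counted adhesion and trafficking genes Pecam1 was higher and Ccr2 lower. The LFA-1 chain genes Itgal and Itgb2 had 1288 and 776 CPM in RES members and 1016 and 528 CPM in Ctrl members. Of 14 counted lipid and lysosome genes Pltp was higher and Lpl lower. The 2 counted efferocytosis genes, the 3 counted matrix and repair genes and the 2 counted cell cycle genes were within 1.5-fold.

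The differences were compared with those of classical monocytes, the class given by the mirrored rule. Of 2669 genes counted in both classes, 96 (3.6%) had a RES over Ctrl ratio at least 1.5-fold higher in nonclassical than in classical monocytes and 43 (1.61%) one at least 1.5-fold lower. Among 3003 genes counted in classical monocytes, 79 (2.63%) were higher and 105 (3.5%) lower in RES. Of the 59 genes higher in RES members that were counted in classical monocytes too, 16 were higher and 5 lower there. Of the 54 lower genes 28 were also lower in classical monocytes and 1 was higher. Classical monocytes were deeper in RES than in Ctrl, and nonclassical monocytes were not.

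Where a gene reached 100 CPM in RES or Ctrl in each of the classes, the largest positive differences were for Ly6i (2.63, interval 2.15 to 3.11), Bcl2a1b (2.23, 1.92 to 2.54), Il1b (1.57, 1.26 to 1.87), Lmo4 (1.34), Sod2 (1.29) and Txn1 (1.23) on the log2 scale. Bcl2a1b, which encodes a survival protein of the BCL2 family with near-identical copies, had 350 CPM in RES members and 330 CPM in Ctrl members, against 31.9 and 141 CPM in classical monocytes. The reads of its copies may be split, so its level is uncertain. Sod2, the mitochondrial superoxide dismutase, had 201 CPM in RES and 118 CPM in Ctrl members, against 124 and 179 CPM in classical monocytes. The difference for Bcl2a1b thus came from classical monocytes, and that for Sod2 from both classes. Ly6i was not higher in RES members, with a log2 ratio of -0.42 (10 CPM added), and its positive difference came from a larger drop in classical monocytes.

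In the same set of genes the largest negative differences included those for Tmem176b (-1.38, -1.66 to -1.10), Ccr2 (-1.29), Ifi27l2a (-1.19), Tmem176a (-0.94) and H2-DMb1 (-0.93). Tmem176b had 353 CPM in RES and 282 CPM in Ctrl classical monocytes, so the ratios of the classes lay on opposite sides of 0. The class II chains differed from classical monocytes by little, with -0.14 for H2-Aa (-0.24 to -0.03) and -0.10 for H2-Eb1 (-0.23 to 0.03). H2-Aa had 628 CPM in RES and 1367 CPM in Ctrl classical monocytes.

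**Figure D5:**
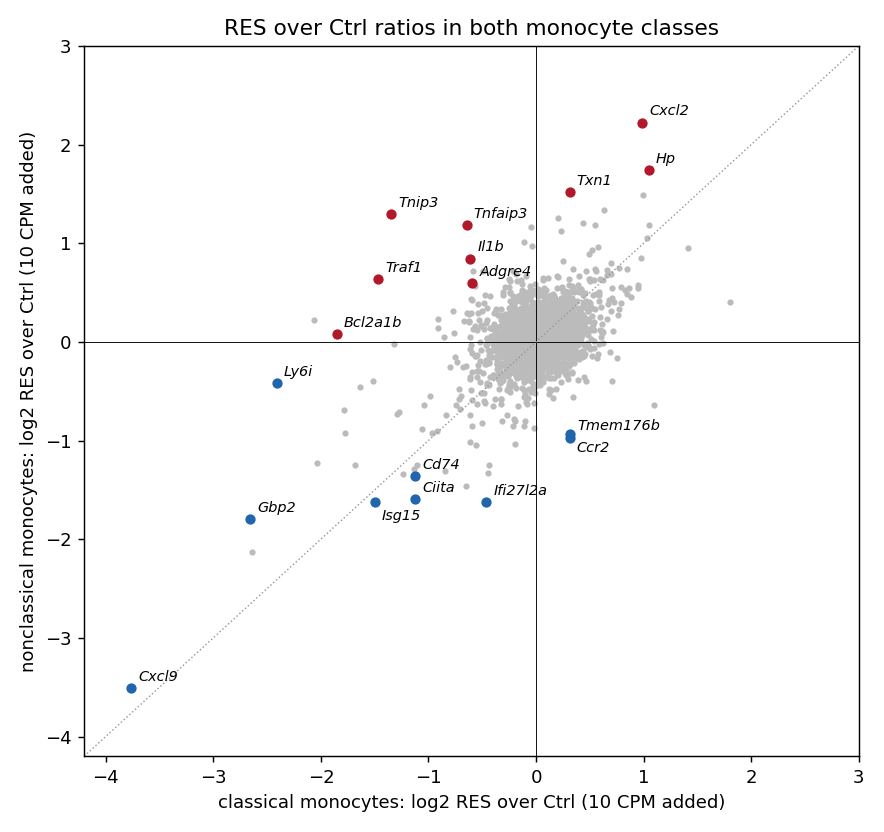
Log2 ratio of RES over Ctrl (10 CPM added) in nonclassical monocytes (vertical) and classical monocytes (horizontal) for 2669 genes counted in both, with equal ratios on the dotted line and named genes in red (above 0 in nonclassical monocytes) or blue (below 0). Traf1, Tnip3, Tnfaip3 and Il1b lie above 0 in nonclassical and below 0 in classical monocytes, and Ccr2 and Tmem176b lie the other way.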

How the data were processed

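Both libraries are raw UMI counts per gene and barcode, without normalization, as deposited by the authors. Cell Ranger 3.1.0 is named in the file headers, and bcl2fastq, Cell Ranger and the mm10 build in the submitters' processing notes. The gene annotation used for counting is not given in the sources used here. No deposited annotation of cells was used.

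Counts of the members were summed per library and scaled to 1e+06 (CPM) with Python 3.11.15, NumPy 2.4.6, SciPy 1.17.1 and pandas 2.3.3. The members and gene lists were chosen with earlier results of these data known. Cells are not replicates, and each group is a single library, so nothing was tested. Ratios carry exact conditional binomial intervals of the counts without addition, shares Clopper-Pearson intervals, differences of shares Newcombe intervals, and differences of ratios between classes an interval from the 4 counts on the log scale, all at the 95% level and for counting error only. The depth is 2964804 UMIs over RES members and 1781712 over Ctrl members, where 3 UMIs come to 1.01 and 1.68 CPM. The 17 rule genes and genes of mitochondria, ribosomal proteins, haemoglobin, the Y chromosome and Xist were left out of counts and ranking. Named genes were the 12 highest and 12 lowest of at least 100 CPM without markers of other cell types, up to 2 highest and 2 lowest per list, the 6 most positive and 6 most negative differences from classical monocytes, and the 12 highest over classical monocytes. A few selected genes are not reported here. Genes outside the rule are named as list members or as chosen after their values were seen. For values per cell, each cell was thinned to 3000 UMIs, which left out 42 RES and 30 Ctrl members. No doublet caller was applied to the main values. Scrublet (in scanpy 1.11.5) served as an alternative at 0.8% per 1000 barcodes. Positions come from GENCODE M21, and promoters from RefSeq on GRCm38.p6, where 2567 of 3193 counted genes matched. The scripts were tested on simulated counts.

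Alternatives covered the cell filter, the marker limits, the classical marker limit, barcodes shared between libraries, doublets, depth, the scaling, the weighting of cells, the added CPM, the limit on low values and leaving out members rich in dendritic cell or class II transcripts.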

Additional observations from a re-analysis of the deposited data

Results flagged for a closer look

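In 5 of the genes whose values are given, RES and Ctrl differed at least 1.5-fold (10 CPM added) in each monocyte class, in opposite directions in nonclassical and classical monocytes. With 1 library per group, this difference between the classes was not tested.

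Tnip3, which binds the ubiquitin-editing enzyme A20, had 90.4 CPM in RES and 30.9 CPM in Ctrl nonclassical monocytes, and 33.8 CPM in RES and 101 CPM in Ctrl classical monocytes, a difference of 3.14 between the log2 ratios. Traf1, an adaptor of TNF receptors, had 139 CPM in RES and 85.9 CPM in Ctrl nonclassical monocytes, and 15.4 and 60.3 CPM in classical monocytes, a difference of 2.67. Tnfaip3, which encodes A20, differed by 2.22, with 36.3 CPM in RES and 62.3 CPM in Ctrl classical monocytes. Il1b differed by 1.57, with 84.2 CPM in RES and 134 CPM in Ctrl classical monocytes. All 4 were higher in RES among nonclassical and lower in RES among classical monocytes.

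Adgre4 differed by 1.31 and had 714 CPM in RES and 469 CPM in Ctrl nonclassical monocytes, and 45.6 and 74.0 CPM in classical ones. Its log2 ratio in nonclassical monocytes was 0.60 (10 CPM added). Without the class II-rich members it was 0.42, too low for a call.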

How the results depend on the processing

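No paired analysis was possible because each group is 1 library, and for the same reason no replicate could be left out. The share of nonclassical monocytes among all kept barcodes was larger in RES under each alternative run, with a difference between 2.11 and 4.12 points. As a share of barcodes with Lyz2 it was 21.7% in RES and 20.8% in Ctrl, and it turned to 22.7% and 23.4% at a marker sum of at least 2. The count of higher genes (105) was 218 among members with 5000 to 10000 UMIs, 65 at a minimum of 100 CPM and 225 with no limit. The count of lower genes (61) was 110, 35 and 165 under these settings, and 38 without the class II-rich members. The count of genes whose ratio differed from classical monocytes (139) was 240, 67 and 696. The limits on CPM change the number of genes counted, to 1660 and 13681, and the cause of the other counts was not tested. Without the class II-rich members, an alternative chosen after seeing the data, 2 named genes changed direction, H2-Eb1 to 0.029 and H2-Aa to 0.14 (10 CPM added), and 71 of the higher and 26 of the lower genes were shared with the main result. Setting the median ratio to 0 gave 77 higher and 73 lower genes, with Adgre4, Cd274, Zfp36, Pltp and Traf1 no longer called higher and Psmb8 and Atf3 called lower. Of 588 values of 42 named genes under the alternatives, 505 lay within a half-width of the counting interval around their main value. Of the others, 81 lay outside it and 2 changed sign. Of 266 list medians, 254 lay within the median half-width of their genes and 12 did not. These counts do not record whether a gene stayed called at 1.5-fold. The depth of the members, not of the libraries, limits genes under about 50 CPM, and the spread between mice is unknown.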

Other observations

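Some values of the members belong to no comparison above. The most variable genes among members, by the variance over the mean of thinned counts, were Cd74 (36.0 in RES and 36.3 in Ctrl), H2-Aa (16.8 in RES and 18.3 in Ctrl) and the ferritin gene Fth1 (19.2 in RES and 16.2 in Ctrl), where the median gene had 1.12 in both libraries. Apoe, the apolipoprotein gene, had 11.8 in RES and 7.52 in Ctrl. The identity genes outside the rule summed to a median of 70 UMIs per thinned member in RES and 58 in Ctrl, and 21 and 20 in classical monocytes.

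Other genes that were higher in RES members and were chosen after their values were seen include receptors. Lilra5, an activating receptor, had 109 CPM in RES and 56.1 CPM in Ctrl members, and 0.42 and 3.22 CPM in classical monocytes. C5ar1, the receptor of complement C5a, had 68.1 CPM in RES and 20.2 CPM in Ctrl members, Lifr, the receptor of leukaemia inhibitory factor, 62.4 and 15.7 CPM, and Id2, an inhibitor of transcription factors, 328 and 163 CPM. C5ar1 and Lifr were also higher in the classical monocytes of RES, with 38.5 and 51.7 CPM against 4.02 and 20.9 CPM in Ctrl. Id2 was not, with 193 CPM in RES and 198 CPM in Ctrl classical monocytes. Among lower genes, Batf3, a factor of dendritic cells, had 19.6 CPM in RES and 60.1 CPM in Ctrl members, and Cd83, an activation marker, 29.3 and 74.1 CPM.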
